A study of Mus musculus with 18 samples.

Results

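The 10 genes described here encode mouse cathepsins outside the osteoclast program, so cathepsin K is left out. They are Ctsa, Ctsb, Ctsc, Ctsd, Ctse, Ctsf, Ctsh, Ctsl, Ctss and Ctsz, and they were picked by gene symbol from a table of 21380 genes. All 10 were in the table, and all 10 passed the filter on low values (3 or more libraries with a normalized count of 10 or more), which left 14288 genes for testing.

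Cathepsins are proteases of lysosomes and endosomes. They are made as inactive precursors, carried to the lysosome largely by mannose 6-phosphate receptors, and activated by cleavage in the acid interior. Most belong to the papain family of cysteine proteases (B, C, F, H, L, S and Z), cathepsins D and E are aspartic proteases, and cathepsin A is a serine carboxypeptidase. Macrophages use them to digest engulfed material, to trim antigens and the invariant chain of MHC class II, and to cleave endosomal Toll-like receptors, and cystatins and serpins hold the cysteine cathepsins in check.

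The measured material was poly(A) RNA of macrophages that had been cultured from femoral marrow for 7 days in 30 ng/mL macrophage colony-stimulating factor and 15% serum. The mice were labelled as knockout (KO) or wild type (WT) for Ldha, the A chain of lactate dehydrogenase. The 6 groups, with 3 libraries each, were KO with IFN-gamma for 24 h, WT with IFN-gamma for 24 h, KO with IL-4 for 24 h, WT with IL-4 for 24 h, KO untreated and WT untreated. IFN-gamma is a signal of classical and IL-4 of alternative macrophage activation. By their codes the libraries of a group came from 3 separate animals, and the same 6 animals are found in every treatment. All groups share the colony-stimulating factor, and the deletion is macrophage-specific by the series title. The sources used here do not give the driver of the Ldha deletion or the strain, sex and age of the mice. The IFN-gamma and IL-4 comparisons share the untreated libraries.

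The 18 libraries held 9.773 to 49.54 M reads, with a median of 30.94 M. Ldha in KO cells stood at 25.6% (IFN-gamma), 17.5% (IL-4) and 20.0% (untreated) of its WT mean. Lyz2, the lysozyme gene, stood at 0.0866, 0.133 and 0.124% of its WT mean in KO cells of the same treatments. A difference between KO and WT therefore cannot be told apart between loss of Ldha, loss of Lyz2 and other differences between the animals. The 6 macrophage markers were all detected in every group, with a summed normalized count of 179984 to 194618 in KO and 175291 to 201312 in WT cells with IFN-gamma, 169800 to 191966 in KO and 212718 to 219713 in WT cells with IL-4, and 193390 to 219592 in KO and 208708 to 218928 in WT untreated cells. Of these markers 2 were called higher and 2 lower in KO with IFN-gamma (14.3% and 13.6% of all genes). With IL-4, 3 were called lower in KO (3.13% of all genes), and untreated 1 was lower (0.525%). With IFN-gamma the calls of Csf1r (0.05888 to 0.1047) and Fcgr1 (0.05212 to 0.0786) were each lost without any of several libraries. With IL-4 the call of Adgre1 was lost without KO replicate 1 (0.0626). The untreated call, that of Mertk, was lost without KO replicate 1 (0.07787) or WT replicate 3 (0.05308). Markers of stromal cells were low, and their sum over 6 genes ran from 220 to 871.1 in KO and from 146.3 to 283 in WT cells with IFN-gamma, from 458.3 to 1412 in KO and from 213 to 819.6 in WT cells with IL-4, and from 410.7 to 1477 in KO and from 174.4 to 451.9 in WT untreated cells. Of these, 1 of 5 tested genes was called higher in KO with IFN-gamma. Markers of other cells also moved with genotype under IFN-gamma: summed osteoclast markers ran from 1789 to 2213 in KO and from 918.6 to 1439 in WT cells (5 of 6 called higher), dendritic markers from 193.9 to 344.6 in KO and from 44.81 to 232.8 in WT cells (1 of 2 called higher), and neutrophil markers from 31.17 to 66.96 in KO and from 2.255 to 4.717 in WT cells (1 of 1). Summed dendritic markers also differed with IL-4, from 102.4 to 121.9 in KO and from 21.26 to 45.88 in WT cells (1 of 2 called higher), and stood at 8.165 to 12.99 in KO and 0.9021 to 3.952 in WT untreated cells. Over all genes 14.3% were called higher with IFN-gamma and 3.46% with IL-4. Of 8 listed neutrophil markers 4 had values, and the 1 tested was S100a8. With IFN-gamma S100a8 stood at 56.79, 25.98 and 59.14 in KO and at 0, 1.127 and 1.179 in WT cells. The IFN-gamma call of the dendritic marker Ccr7 was lost without KO replicate 1 (0.07534) or 2 (0.09849) or WT replicate 2 (0.1123) or 3 (0.122). That of the osteoclast marker Acp5 was lost without KO replicate 1 (0.06161) or 3 (0.05531) or WT replicate 2 (0.05571). In untreated cells 1 osteoclast marker, Atp6v0d2, was called lower in KO, a call lost without any of several libraries (0.06425 to 0.1454). The part of these cell types in any KO against WT result below was not tested. WT IFN-gamma replicate 1 stood apart from its group (chi-square per gene of 55.07 and 60.46 to the others, against 4.331 between those). Such distances were also found elsewhere, at 43.28 to 59.44 between the WT IL-4 libraries, and 4.331 was the smallest of any pair within a group.

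Values below are the deposited normalized counts, that is, reads divided by a size factor per library. Group values are means ± SD of 3 libraries, a change is the log2 fold change ± SE that limma fitted to log2(normalized count + 1), and a gene was called at a Benjamini-Hochberg adjusted p under 0.05 over all genes tested. In a bulk sample, fewer cells of a type and less RNA per cell cannot be told apart.

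Together the 10 cathepsins held 2.70 ± 0.18% of the reads in KO and 2.42 ± 0.0678% in WT cells with IFN-gamma, 3.58 ± 0.206% in KO and 3.83 ± 0.0848% in WT cells with IL-4, and 2.99 ± 0.0422% in KO and 3.14 ± 0.121% in WT untreated cells. The highest of the 6 IFN-gamma libraries (2.89%) lay below the lowest untreated library (2.94%), and the lowest IL-4 library (3.41%) lay above the highest untreated library (3.23%). These are shares of all reads, and the total differs between treatments on the normalized scale used below. Normalized counts of a library summed to 34.06 to 35.37 M with IFN-gamma, 29.75 to 32.04 M with IL-4 and 27.04 to 28.12 M untreated. A lower share with IFN-gamma therefore does not by itself show a lower normalized count of the cathepsins. Per kilobase of transcript, Ctss and Ctsb led in every group. Untreated KO cells held 92719 ± 2037 normalized counts per kb of Ctss and 92089 ± 1072 of Ctsb, which differed by less than the spread of the libraries, and untreated WT cells held 112338 ± 6287 and 102363 ± 3990. Ctsd and Ctsz followed in the untreated groups. Ctsf and Ctse were lowest in every group, at 119 ± 18 and 25.6 ± 5.34 per kb in untreated KO cells and 146 ± 5.29 and 11.2 ± 0.233 per kb in untreated WT cells. Ctsc stood eighth among the members per kb in the untreated and IL-4 groups, and with IFN-gamma its mean stood above those of Ctsh and Ctsa in both genotypes. The order of Ctsa and Ctsl (untreated, WT with IFN-gamma), of Ctsd and Ctsc (WT with IFN-gamma) and of Ctsd and Ctsz (KO with IL-4) changed when all annotated exons were used as the length, so these pairs are not ranked.

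**Figure D1:**
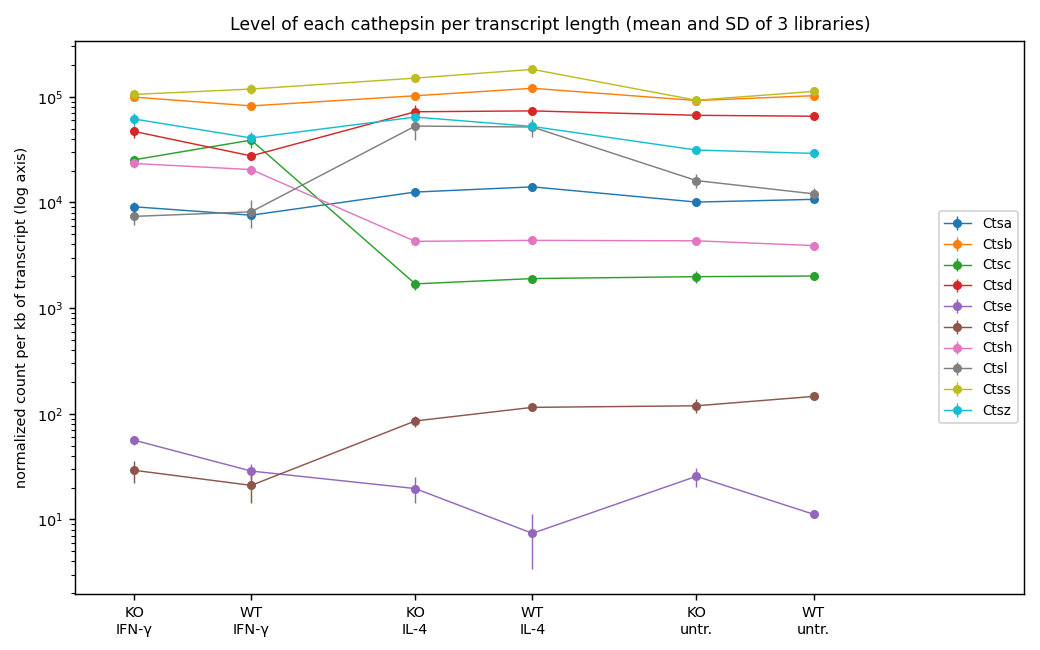
Level of each cathepsin in normalized counts per kb of transcript (log axis) in the 6 groups; points are means and bars SDs of 3 libraries, and lines join the points of a gene for reading only. Ctss and Ctsb are the top points in every group, Ctse and Ctsf the lowest, and the green line of Ctsc stands far higher in both IFN-gamma groups than elsewhere.

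The counting rules bear on a few members. In the GENCODE M21 annotation, exons of Ctsd share 34.4% of their bases with Gm49369, a gene on the same strand, and exons of Ctsl share 26.8% with Gm47123, an antisense gene. Exons of Ctsb share 12.8% of bases with Fdft1, and those of Ctsa share 10.5% with Pltp and 6.87% with Neurl2, all on the opposite strand. Exons of Ctsl also share 6.09% of bases with Gm49230, a processed pseudogene on the same strand. The sources used here do not say whether the authors' counting used strand, which bears on the overlaps with opposite-strand genes. Reads of the same-strand stretches, as of Ctsd with Gm49369, cannot be told apart by strand in either case. Reads of all these stretches thus cannot be assigned with certainty.

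IFN-gamma moved most of the cathepsins, in both directions. In KO cells 4 of 10 members were higher, 3 lower and 3 not called against untreated cells, where 28.3% of all genes tested were higher and 27.5% lower (55.8% in all). In WT cells 4 were higher, 5 lower and 1 not called, where 31.4% of all genes were higher and 31.1% lower (62.4% in all). Treated and untreated libraries did not overlap for 9 members in KO and 8 in WT cells, against 68.9% and 71.1% of all genes. The members' shares thus lay near those of all genes. Their median change was 0.14 in KO and -0.12 in WT cells, against -0.013 and -0.011 over all genes. The same 4 members (Ctsc, Ctse, Ctsh and Ctsz) were called higher in both genotypes, and Ctsd, Ctsf and Ctsl were called lower in both.

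IL-4 raised 4 members, Ctsa, Ctsl, Ctss and Ctsz, in both genotypes. In KO cells 4 of 10 were higher, 0 lower and 6 not called, where 15.8% of all genes were higher and 14.5% lower (30.2% in all); 5 members had an unadjusted p under 0.05, and Ctsf was called lower by edgeR (adjusted p = 0.03928) and by DESeq2 (0.015). In WT cells 4 were higher, 0 lower and 6 not called, where 16.3% of all genes were higher and 14.0% lower (30.3% in all); 5 members had an unadjusted p under 0.05, and neither edgeR nor DESeq2 called a member lower. DESeq2 also called Ctsb higher with IL-4, in KO (adjusted p = 0.04891) and in WT cells (0.001028). Treated and untreated libraries did not overlap for 6 members in KO and 8 in WT cells, against 47.7% and 43.7% of all genes. The median change of the members was 0.12 in KO and 0.20 in WT cells, against 0.001 and -0.012 over all genes.

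KO and WT cells differed for 5 members with IFN-gamma, 1 with IL-4 and 0 untreated. With IFN-gamma 4 of 10 members were higher in KO, 1 was lower and 5 were not called, where 14.3% of all genes were higher and 13.6% lower (27.9% in all), and the median of the members was 0.27 against 0.009 over all genes. With IL-4, 1 member was higher, 0 lower and 9 not called, where 3.46% of all genes were higher and 3.13% lower (6.59% in all); 3 members had an unadjusted p under 0.05, edgeR called 1 and DESeq2 called 3. In untreated cells limma called 0 of 10 members, where 1.46% of all genes were higher and 0.525% lower (1.98% in all); 2 members had an unadjusted p under 0.05, and edgeR and DESeq2 each called 1. KO and WT libraries did not overlap for 6 members in each treatment, against 42.6% of all genes with IFN-gamma, 20.1% with IL-4 and 30.1% untreated.

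**Figure D2:**
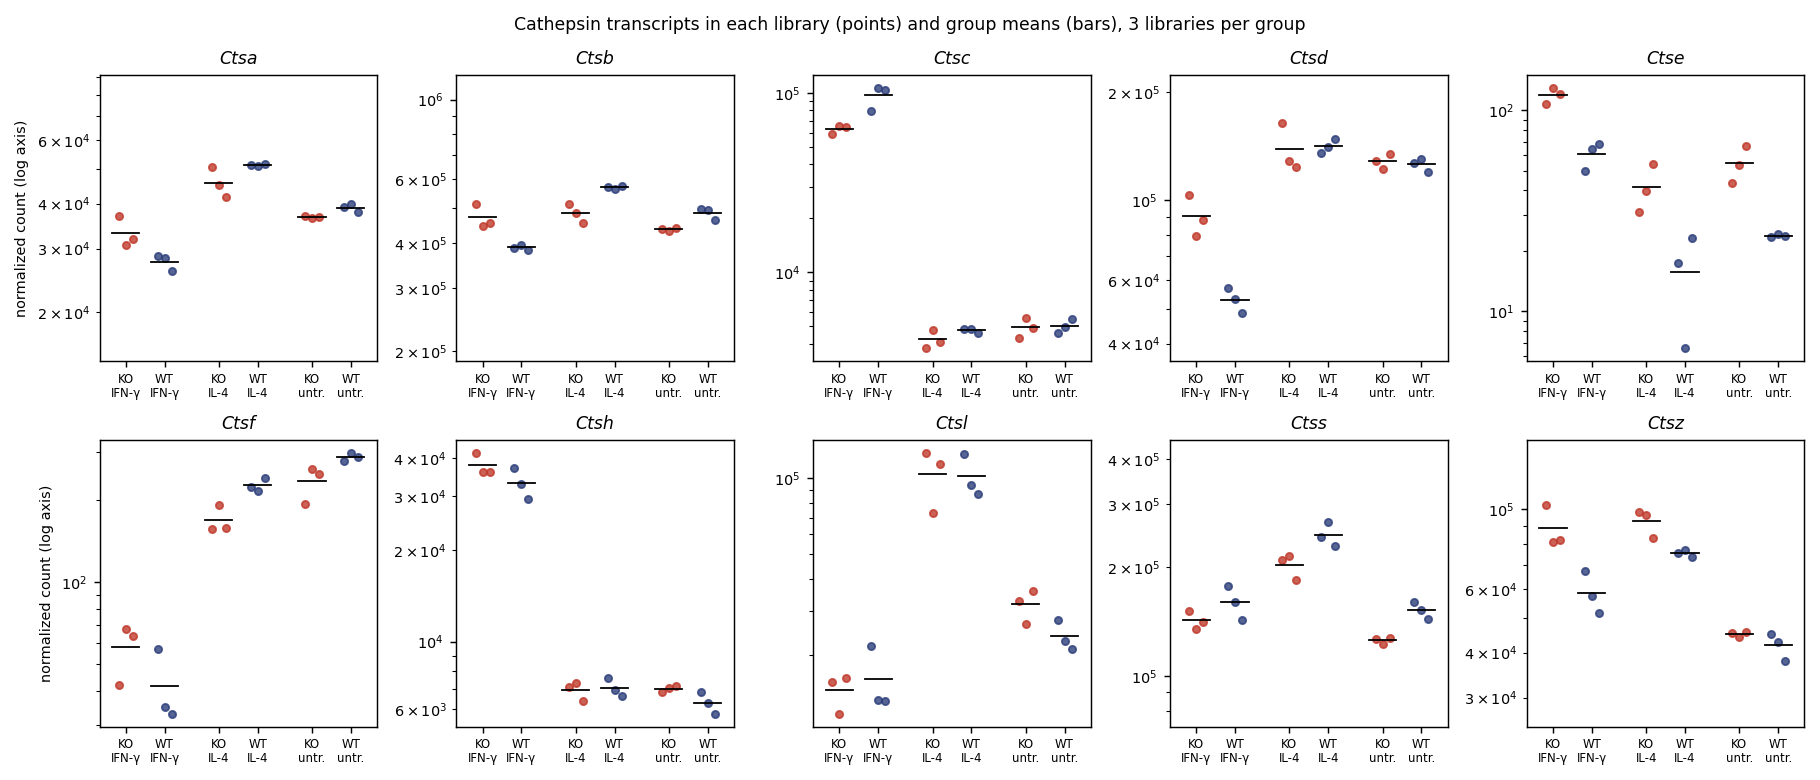
Normalized count (log axis) of each of the 10 cathepsins in the 18 libraries; points are libraries, bars are group means, KO is red and WT blue. With IFN-gamma the 3 KO points lie above all WT points for Ctsa, Ctsb, Ctsd, Ctse and Ctsz and below them for Ctsc.

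Of the exopeptidases, Ctsc rose the most with IFN-gamma. Ctsc (ENSMUSG00000030560.17, GRCm38 chr7:88278085-88310888, plus strand) encodes the dipeptidyl peptidase that activates the serine proteases of granules. It is shown with the 250 bases before its RefSeq start (GRCm38.p6, chr7:88277835-88278084, plus strand), because it had the largest response among the members. Capitals mark TTCNNNGAA, the pattern that STAT dimers are known to bind, searched on both strands:
Ctsc: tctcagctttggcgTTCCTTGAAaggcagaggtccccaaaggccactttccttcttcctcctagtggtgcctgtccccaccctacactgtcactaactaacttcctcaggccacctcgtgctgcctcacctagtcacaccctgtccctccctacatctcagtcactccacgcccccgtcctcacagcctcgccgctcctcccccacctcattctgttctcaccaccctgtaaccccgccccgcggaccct
The pattern lies 236 to 228 bases before the start and occurs in 7.02% of 32851 RefSeq promoter windows of this length, and the interferon-stimulated response pattern (GAAA, any 2 bases, GAAA) was not among the letters of this window.

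Ctsc stood at 59138, 65714 and 64476 normalized counts in KO cells with IFN-gamma, and at 79947, 107336 and 103777 in WT cells with IFN-gamma. With IL-4 it stood at 3774, 4792 and 4108 in KO and at 4840, 4830 and 4561 in WT cells. Untreated KO cells held 4330, 5596 and 4914, and untreated WT cells 4571, 4985 and 5500. All 6 IFN-gamma libraries were more than 10-fold above every other library, and among them each KO library was below each WT library. The rise over untreated cells was 3.68 ± 0.117 in KO (a ratio of means of 12.8, adjusted p = 4.16e-14) and 4.26 ± 0.117 in WT cells (19.3, adjusted p = 6.3e-15). In KO cells with IFN-gamma Ctsc was lower than in WT (-0.61 ± 0.117, adjusted p = 0.000978), and the call held without each library in turn (-0.74 to -0.53). With IL-4 (-0.17, 95% interval -0.42 to 0.07) and untreated (-0.02, -0.27 to 0.22) no difference between the genotypes was called.

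Ctsh, the aminopeptidase of the family, rose with IFN-gamma in both genotypes. Ctsh (ENSMUSG00000032359.14, GRCm38 chr9:90054152-90076089, plus strand) averaged 37793 ± 3229 in KO and 33085 ± 3844 in WT cells with IFN-gamma, 6926 ± 479 in KO and 7076 ± 490 in WT cells with IL-4, and 7008 ± 155 in KO and 6317 ± 510 in WT untreated cells. The lowest IFN-gamma library (29341) was far above the highest of the other 12 (7615), and KO and WT libraries overlapped in the IFN-gamma group. The responses were 2.43 ± 0.0913 in KO and 2.39 ± 0.0913 in WT cells (adjusted p = 3.45e-13 and 3.61e-13). Their difference was 0.04 (interval -0.23 to 0.31). KO against WT with IFN-gamma was 0.20 (adjusted p = 0.123) and was called without WT IFN-gamma replicate 1 (0.28, adjusted p = 0.03743).

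Ctsz encodes cathepsin Z, a carboxypeptidase that removes a residue at a time. Ctsz (ENSMUSG00000016256.10, GRCm38 chr2:174427493-174439039, minus strand) stood at 102851, 81173 and 82332 in KO cells with IFN-gamma, and at 67261, 57333 and 51544 in WT cells with IFN-gamma. With IL-4 it stood at 98263, 96271 and 83306 in KO and at 75559, 76993 and 73934 in WT cells. Untreated KO cells held 45465, 44206 and 45694, and untreated WT cells 45136, 42918 and 37806. Under both signals all KO libraries were above all WT libraries, and untreated libraries overlapped. Ctsz rose with IFN-gamma by 0.97 ± 0.114 in KO and 0.48 ± 0.114 in WT cells (adjusted p = 1.04e-06 and 0.00136), and with IL-4 by 1.03 ± 0.114 and 0.85 ± 0.114. The IFN-gamma call in WT cells was lost when values were scaled to library totals (0.18, adjusted p = 0.1451). In KO cells it was higher than in WT with IFN-gamma (0.60 ± 0.114, adjusted p = 0.000942, 0.49 to 0.70 without each library in turn) but was not called with IL-4 (0.29, interval 0.05 to 0.53, adjusted p = 0.137).

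Ctsa encodes cathepsin A, the carboxypeptidase that shields beta-galactosidase and neuraminidase in a lysosomal complex. Ctsa (ENSMUSG00000017760.16, GRCm38 chr2:164832873-164841032, plus strand) stood at 37040, 30699 and 31810 in KO cells with IFN-gamma, and at 28580, 28296 and 25949 in WT cells with IFN-gamma. With IL-4 it averaged 45706 ± 4333 in KO and 51203 ± 205 in WT cells, and untreated it averaged 36749 ± 164 in KO and 38989 ± 921 in WT cells. KO libraries were thus all above WT with IFN-gamma and all below WT in the other treatments. Only the first difference was called (0.26 ± 0.084, adjusted p = 0.0275), and it was not called without KO IFN-gamma replicate 1 (0.18, adjusted p = 0.1409), without WT IFN-gamma replicate 3 (0.22, 0.1045) or in a fit of the IFN-gamma libraries alone (0.0819). With IFN-gamma Ctsa fell in WT cells (-0.50 ± 0.084, adjusted p = 5.38e-05). In KO cells the change was -0.15 (adjusted p = 0.135, and 0.02762 without KO IFN-gamma replicate 1). With IL-4 it rose in KO cells (0.31 ± 0.084, adjusted p = 0.00892, not called at 0.05547 when replicate 1 of KO IL-4 was left out or at 0.1096 when values were scaled to library totals) and in WT cells (0.39 ± 0.084, adjusted p = 0.00162).

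**Figure D3:**
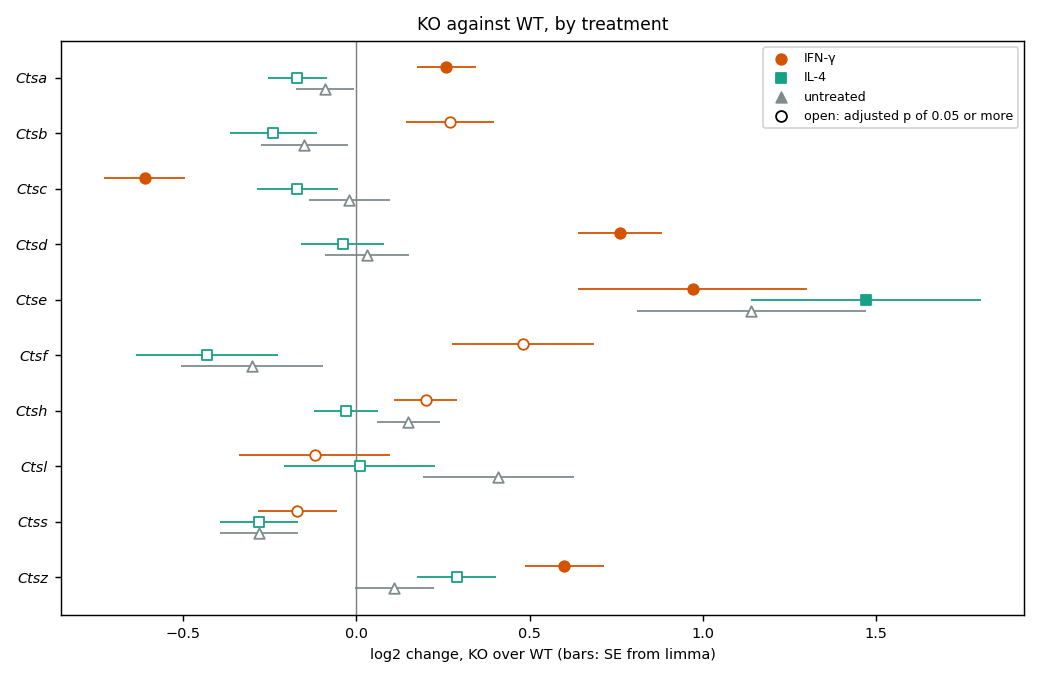
Log2 change of KO over WT for each cathepsin with IFN-gamma (circles), IL-4 (squares) and untreated (triangles); bars are SEs from limma, and filled symbols had an adjusted p under 0.05. Filled circles lie to the right for Ctsa, Ctsd, Ctse and Ctsz (0.26 to 0.97) and to the left for Ctsc (-0.61), and the filled square is Ctse (1.47).

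Ctsb, Ctsl, Ctss and Ctsf are the endopeptidases of the papain family. Ctsb, which also removes dipeptides from chain ends, was the member with the most reads. Ctsb (ENSMUSG00000021939.8, GRCm38 chr14:63122462-63145923, plus strand) averaged 470748 ± 36047 in KO and 388749 ± 6499 in WT cells with IFN-gamma, 484740 ± 28790 in KO and 570864 ± 6139 in WT cells with IL-4, and 436778 ± 5087 in KO and 485508 ± 18923 in WT untreated cells. Its highest group mean was 1.47 times its lowest, the smallest range among the members. KO libraries were all above WT with IFN-gamma and all below WT with IL-4 and untreated, without a call in any of these comparisons (0.27, -0.24 and -0.15, adjusted p = 0.118, 0.288 and 0.756). The first was called by edgeR (adjusted p = 0.02234), DESeq2 (8.667e-05) and with a mean of at least 50 required (0.04995), and the second by DESeq2 (0.003815). IFN-gamma lowered Ctsb in WT cells (-0.32 ± 0.126, adjusted p = 0.0356), a call lost in a fit of those groups alone (0.06257) and without any library of these groups but WT untreated replicate 3 (0.06501 to 0.09149). In KO cells the change was 0.11 (interval -0.16 to 0.37). With IL-4 the changes were 0.15 (interval -0.12 to 0.41) in KO and 0.23 (-0.03 to 0.50) in WT cells. Limma called neither, and all IL-4 libraries lay above all untreated libraries in each genotype. DESeq2 called both higher (adjusted p = 0.04891 in KO and 0.001028 in WT cells).

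Ctsl, which in macrophages cleaves proteins of the lysosome and outside the cell, rose with IL-4 and fell with IFN-gamma. Ctsl (ENSMUSG00000021477.9, GRCm38 chr13:64359337-64370890, minus strand) stood at 15684, 11764 and 16181 in KO cells with IFN-gamma and at 21671, 13296 and 13241 in WT cells with IFN-gamma. With IL-4 it stood at 126052, 72791 and 113586 in KO cells and at 124540, 94407 and 86802 in WT cells. Untreated KO cells held 32733, 26539 and 35952, and untreated WT cells 27423, 22709 and 21191. Every IL-4 library was above every untreated library. KO and WT libraries overlapped in all 3 treatments. With IL-4 Ctsl rose by 1.69 ± 0.218 in KO and 2.09 ± 0.218 in WT cells (ratios of means 3.28 and 4.29, adjusted p = 1.12e-05 and 1.18e-06). With IFN-gamma it fell in KO cells (-1.13 ± 0.218, adjusted p = 0.000259) and in WT cells (-0.60 ± 0.218, adjusted p = 0.0243). The WT call was lost without WT IFN-gamma replicate 2 (adjusted p = 0.1012), WT IFN-gamma replicate 3 (0.1017) or WT untreated replicate 1 (0.09704). KO against WT was not called in any treatment (-0.12, 0.01 and 0.41, adjusted p of 0.501 or more).

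Ctss encodes cathepsin S, which works at neutral pH too and cuts the invariant chain before peptide loading. Ctss (ENSMUSG00000038642.10, GRCm38 chr3:95526786-95556403, plus strand) is shown with the 250 bases before its RefSeq start (GRCm38.p6, chr3:95526536-95526785, plus strand), because this window holds GAAA, any 2 bases and GAAA (capitals, searched on both strands), the pattern that interferon regulatory factors are known to bind, while the gene did not respond to IFN-gamma by the test:
Ctss: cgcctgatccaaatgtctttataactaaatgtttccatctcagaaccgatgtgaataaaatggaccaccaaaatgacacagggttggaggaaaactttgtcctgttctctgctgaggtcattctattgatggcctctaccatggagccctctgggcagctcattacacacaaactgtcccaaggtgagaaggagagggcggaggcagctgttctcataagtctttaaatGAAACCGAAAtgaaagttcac
The pattern lies 21 to 12 bases before the start and occurs in 2.98% of the 32851 windows.

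Ctss averaged 142565 ± 8496 in KO and 160328 ± 17594 in WT cells with IFN-gamma, 203433 ± 16357 in KO and 246289 ± 19401 in WT cells with IL-4, and 125634 ± 2760 in KO and 152217 ± 8518 in WT untreated cells. The IFN-gamma response was 0.18 (interval -0.06 to 0.42) in KO and 0.07 (-0.17 to 0.31) in WT cells, neither of them called. IL-4 raised Ctss by 0.69 ± 0.113 in both KO and WT cells (adjusted p = 0.000124 and 0.000136), and all IL-4 libraries were above all untreated libraries. KO means were below WT means in every treatment, without overlap of libraries with IL-4 and untreated. These differences were not called (IFN-gamma -0.17, IL-4 -0.28 and untreated -0.28, adjusted p = 0.301, 0.156 and 0.302), apart from IL-4 by DESeq2 (0.03342).

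Ctsf, a cysteine protease with a long, cystatin-like propeptide, was low. Ctsf (ENSMUSG00000083282.3, GRCm38 chr19:4855130-4860918, plus strand) stood at 42.14, 67.54 and 63.48 in KO cells with IFN-gamma, and at 56.96, 34.95 and 33.02 in WT cells with IFN-gamma. With IL-4 it averaged 169.3 ± 19.8 in KO and 227.4 ± 13.1 in WT cells, and untreated 235.3 ± 35.6 in KO and 288.5 ± 10.5 in WT cells. Each IFN-gamma library was below every library of the other treatments, and 28 to 73 reads stand behind each IFN-gamma value. The fall was -2.03 ± 0.205 in KO and -2.81 ± 0.205 in WT cells (ratios of means 0.245 and 0.144, adjusted p = 1.6e-07 and 1.73e-09). KO against WT was not called (0.48 with IFN-gamma, -0.43 with IL-4 and -0.30 untreated, adjusted p = 0.0946, 0.233 and 0.661). With IFN-gamma it was called when replicate 1 was left out of the KO group (0.68, adjusted p = 0.02618) or out of the WT group (0.72, 0.01119).

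The aspartic proteases were higher in KO than in WT cells with IFN-gamma. Ctsd (ENSMUSG00000007891.16, GRCm38 chr7:142375911-142388038, minus strand) encodes cathepsin D, the main aspartic protease of lysosomes, and is shown with the 250 bases before its RefSeq start (GRCm38.p6, chr7:142387828-142388077, minus strand, partly inside the gene as the table places it), because it was the member with the larger called difference in IFN-gamma response between the genotypes. Capitals mark CACGTG, the E-box pattern that TFEB and its relatives are known to bind in promoters of lysosomal genes:
Ctsd: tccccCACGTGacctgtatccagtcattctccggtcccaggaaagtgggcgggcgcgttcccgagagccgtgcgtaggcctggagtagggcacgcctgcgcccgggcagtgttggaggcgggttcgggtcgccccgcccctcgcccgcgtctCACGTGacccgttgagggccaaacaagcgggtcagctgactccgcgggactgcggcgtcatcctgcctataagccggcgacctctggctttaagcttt
The pattern occurs at 245 to 240 and at 98 to 93 bases before the start. CACGTG was found in 6.02% of the 32851 windows and in windows of 4 of the 7 members that had an entry (Ctsa, Ctsd, Ctsf and Ctsl), and not among those of Ctsc, Ctss and Ctsz. Ctsa had 2 windows and its match was in the second only, so the count by gene and the share by window are unlike measures. That Ctsa window and the Ctsl window lay wholly inside the annotated gene, and the Ctsf window partly.

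Ctsd stood at 103539, 79408 and 88084 in KO cells with IFN-gamma, and at 57162, 53080 and 48654 in WT cells with IFN-gamma. With IL-4 it averaged 138672 ± 22152 in KO and 141292 ± 6621 in WT cells, and untreated it averaged 128344 ± 6077 in KO and 125783 ± 5565 in WT cells. KO and WT libraries overlapped with IL-4 and untreated, and with IFN-gamma the lowest KO library was above the highest WT library. The KO against WT change with IFN-gamma was 0.76 ± 0.121 (ratio of means 1.71, adjusted p = 0.000186, 0.66 to 0.85 without each library in turn), against -0.04 with IL-4 and 0.03 untreated. With IFN-gamma Ctsd fell in both genotypes, with a change of -0.51 ± 0.121 in KO and -1.25 ± 0.121 in WT cells (adjusted p = 0.0015 and 7.1e-08).

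Ctse encodes cathepsin E, an endosomal relative of cathepsin D found in few cell types. Ctse (ENSMUSG00000004552.16, GRCm38 chr1:131638306-131675505, plus strand) stood at 108.1, 129.9 and 120.9 in KO cells with IFN-gamma and at 50.09, 64.26 and 68.39 in WT cells with IFN-gamma. With IL-4 it stood at 31.24, 39.69 and 54.02 in KO cells and at 17.48, 6.557 and 23.13 in WT cells. Untreated KO cells held 43.45, 53.7 and 66.14, and untreated WT cells 23.38, 24.36 and 23.71. KO libraries were above WT libraries in all 3 treatments, with KO means at 1.96, 2.65 and 2.29 times the WT means (IFN-gamma, IL-4, untreated). The value of 6.557 stands for 2 reads in the shallowest library. With IL-4 and in untreated cells, the summed dendritic markers given above also lay higher in every KO library than in every WT library. Their part in the Ctse differences was not tested. The changes were 0.97 ± 0.331 with IFN-gamma (adjusted p = 0.0364), 1.47 ± 0.331 with IL-4 (0.0125) and 1.14 ± 0.331 untreated (0.097). The IFN-gamma call was lost without any of its 6 libraries (0.05128 to 0.121) and with no filter (0.05145), and the IL-4 call in a fit of those groups alone (0.2026). The untreated difference was called by edgeR (0.0175), by DESeq2 (0.001555) and in a fit of those groups alone (0.008584). IFN-gamma raised Ctse in KO cells (1.14 ± 0.331, adjusted p = 0.00718) and in WT cells (1.31 ± 0.331, adjusted p = 0.00231). With IL-4 the change was -0.39 in KO and -0.73 in WT cells (adjusted p = 0.413 and 0.107), and the WT change was called without WT IL-4 replicate 3 (-1.07, 0.02268).

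**Figure D4:**
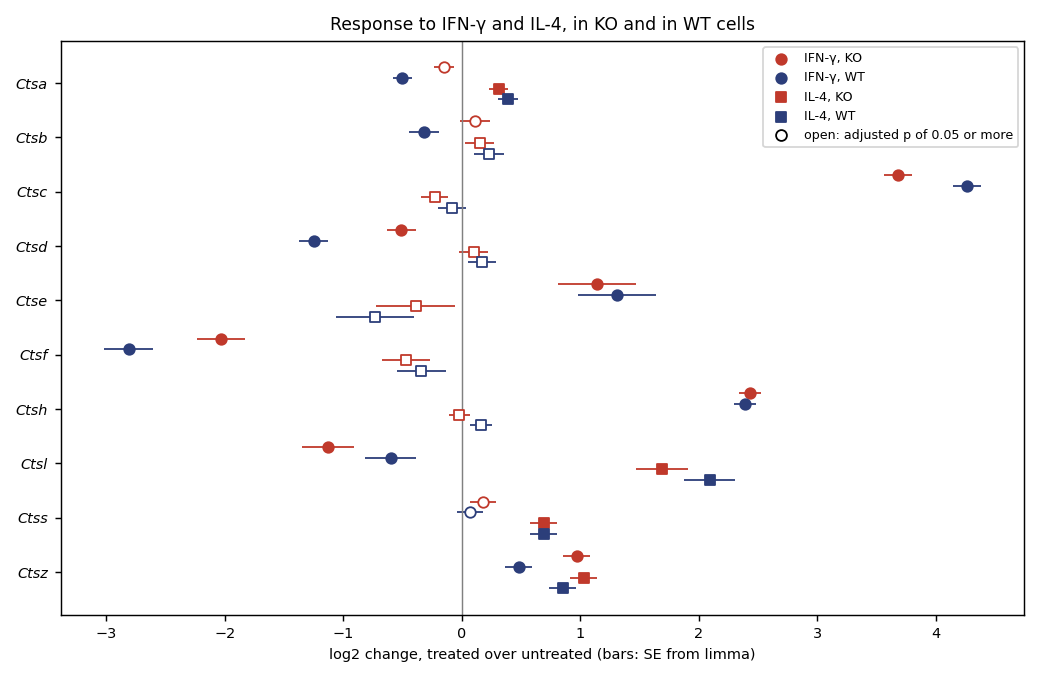
Log2 change of treated over untreated cells for each cathepsin, with IFN-gamma (circles) and IL-4 (squares), in KO (red) and WT (blue) cells; bars are SEs from limma and filled symbols had an adjusted p under 0.05. Ctsc (3.68 and 4.26) and Ctsh (2.43 and 2.39) lie far to the right with IFN-gamma, Ctsf (-2.03 and -2.81) far to the left, and Ctsl rises with IL-4 and falls with IFN-gamma.

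Whether the genotypes responded differently was tested as the difference of the responses (KO minus WT). For IFN-gamma 1 of 10 members had a higher and 1 a lower response in KO, and 8 were not called, where 4.30% of all genes were higher and 4.84% lower (9.15% in all). The higher one was Ctsd, at 0.74 ± 0.171 (adjusted p = 0.0118, 0.63 to 0.82 without each library in turn). Ctsd fell in both genotypes, with changes of -0.51 in KO and -1.25 in WT cells. A positive difference can thus be a smaller fall in KO as well as a larger rise. The lower one was Ctsc, at -0.59 ± 0.165 (adjusted p = 0.0338), and its call was lost without any of 8 of the 12 libraries (0.0508 to 0.09926). Among the rest, Ctsz (0.49), Ctsa (0.35), Ctsb (0.43) and Ctsf (0.78) had unadjusted p-values of 0.00742 to 0.0291 and adjusted p-values of 0.0681, 0.0795, 0.157 and 0.107. With the animal as a block, since each animal gave both libraries, 6 members were called: Ctsd and Ctsc as before, and also Ctsa (0.03809), Ctsf (0.04997), Ctsz (0.02417) and Ctsl (-0.53, 0.01701). Ctsf was also called when IFN-gamma replicate 1 was left out in KO (0.04286) or in WT (0.01824), and Ctsz without that WT library (0.02517) or with a mean of at least 50 required (0.0497). By count tests, edgeR (0.03214) and DESeq2 (3.591e-05) called Ctsb, and DESeq2 called Ctsa (0.01758) and Ctsz (0.01697). Ctsa was also called with the libraries of the compared groups alone (0.04998). For IL-4 the count was 0 of 10, by limma, edgeR and DESeq2 alike and also at an unadjusted p under 0.05, where limma called 0.00700% of all genes (1 gene, higher in KO, and 0.00% lower). The intervals of the IL-4 difference ran from -0.16 to 0.52 for Ctsz, from -1.05 to 0.25 for Ctsl and from -0.65 to 1.32 for Ctse.

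Of the inhibitors of cysteine cathepsins, Cst7 and Serpina3g rose under both signals in both genotypes. Of 20 listed inhibitor genes 10 were in the table and 7 passed the filter. With IFN-gamma 3 rose, 1 fell and 3 were not called in each genotype (28.3% of all genes rose in KO and 31.4% in WT cells). The Ctla2b rise lost its call in KO cells without any library of the compared groups but KO untreated replicate 3 (0.05383 to 0.1321), and in WT cells without WT untreated replicate 2 (0.05741). With IL-4 4 rose and 3 were not called in KO, and 3 rose and 4 were not called in WT cells (15.8% and 16.3% of all genes rose), and KO exceeded WT for 1 gene in each treatment. The median change was 0.92 in KO and 0.50 in WT cells with IFN-gamma and 0.47 in KO and 0.35 in WT cells with IL-4, against -0.013 to 0.001 over all genes. Cst7, cystatin F, which inhibits cathepsin C in granules, averaged 2766 ± 132 in KO and 2707 ± 248 in WT cells with IFN-gamma, 1069 ± 146 in KO and 555.2 ± 55.7 in WT cells with IL-4, and 73.36 ± 8.12 in KO and 47.55 ± 3.26 in WT untreated cells. It rose with IFN-gamma by 5.22 ± 0.116 in KO and 5.80 ± 0.116 in WT cells, a smaller response in KO (-0.58 ± 0.163, adjusted p = 0.034) whose call was lost without any of 8 of the 12 libraries (0.053 to 0.09536). With IL-4 the rise was 3.84 ± 0.116 in KO and 3.52 ± 0.116 in WT cells. KO was above WT with IL-4 (0.94 ± 0.116, adjusted p = 0.000115) and untreated (0.61 ± 0.116, adjusted p = 0.00813, and 0.05415 without WT untreated replicate 2), but not by the test with IFN-gamma (0.03).

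Serpina3g, a serpin that blocks cathepsin B and other cysteine proteases, had means of 14056 ± 2399 in KO and 14405 ± 3918 in WT cells with IFN-gamma against 2.299 ± 0.509 in KO and 4.258 ± 0.887 in WT untreated cells (12.05 ± 0.24 and 11.39 ± 0.24, which the pseudocount of 1 understates at such low untreated counts). Cstb, the cytosolic cystatin B, averaged 15172 ± 1333 in KO and 8505 ± 641 in WT cells with IFN-gamma, the inhibitor called higher in KO there (0.83 ± 0.137, adjusted p = 0.000262). Cst3, cystatin C, rose with IL-4 (0.47 ± 0.12 in KO and 0.49 ± 0.12 in WT cells) and did not pass with IFN-gamma. Serpinb6a fell with IFN-gamma, with adjusted p = 3.4e-08 in KO and 2.98e-08 in WT cells (-0.99 ± 0.0893 in WT).

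**Figure D5:**
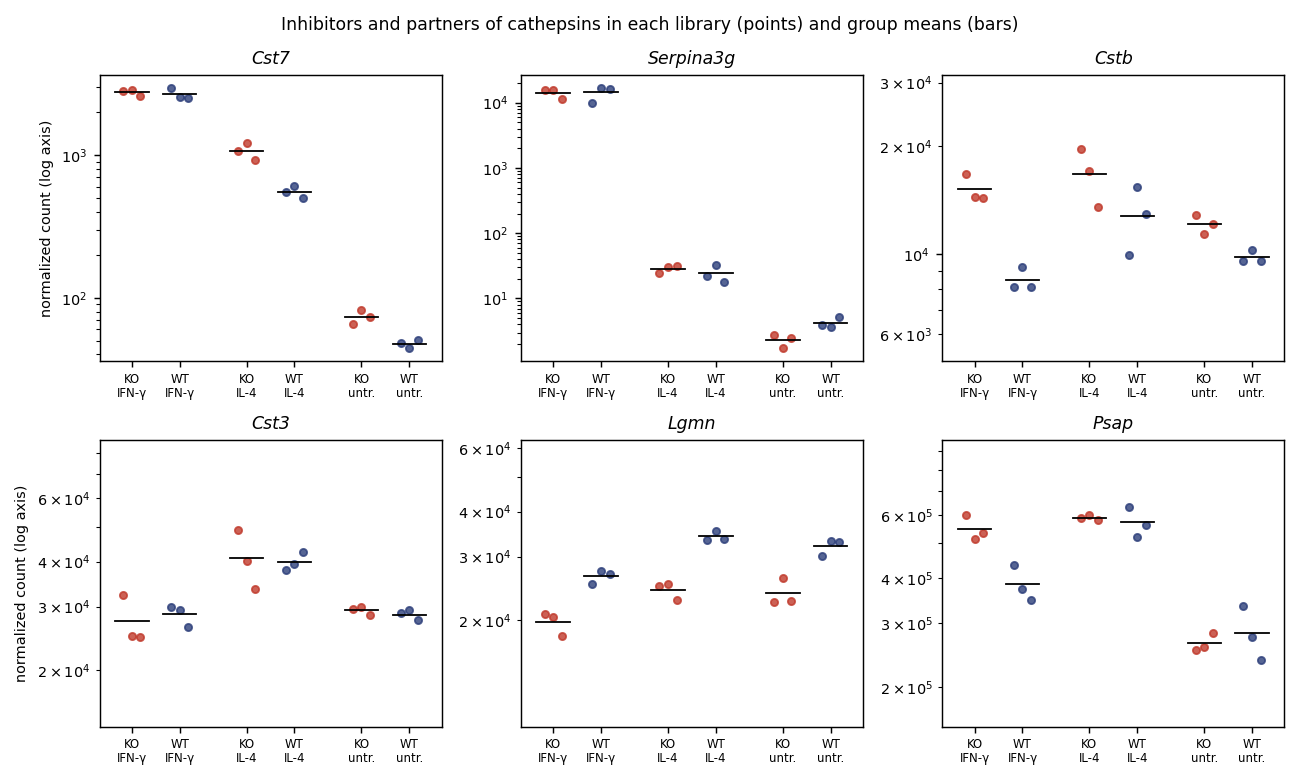
Normalized counts (log axis) of the inhibitors Cst7, Serpina3g, Cstb and Cst3, the cathepsin-processing protease gene Lgmn and the saposin precursor gene Psap in the 18 libraries; points are libraries, bars group means, KO red and WT blue. Cst7 and Serpina3g stand lowest in untreated cells and highest with IFN-gamma, and Lgmn is lower in every KO library than in every WT library of the same treatment.

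Of 8 measured other cathepsins and lysosomal proteases, all were called between KO and WT with IFN-gamma, 4 higher and 4 lower in KO, where 14.3% of all genes were higher and 13.6% lower, and their median was -0.08 with IL-4 and -0.05 in untreated cells. Of the 8 calls, that of Napsa was lost without KO replicate 2 (0.1331) or WT replicate 1 (0.1474) of the IFN-gamma groups, and that of Scpep1 without KO replicate 1 (0.1078) or 3 (0.06959) or WT replicate 2 (0.07651) or 3 (0.09527). Ctsk, the cathepsin left out of the set, averaged 296.9 ± 60.4 in KO and 49.44 ± 9.27 in WT cells with IFN-gamma (2.56 ± 0.195, adjusted p = 8.49e-08). Tpp1, a tripeptidyl peptidase (0.54 ± 0.0659), and Dpp7, a dipeptidyl peptidase (0.63 ± 0.12), were higher in KO, and Ctso, cathepsin O, was lower (-0.46 ± 0.0998). Lgmn, legumain, the asparaginyl protease that processes several cathepsins, averaged 19777 ± 1449 in KO and 26480 ± 1084 in WT cells with IFN-gamma. Legumain was lower in KO in all 3 treatments (-0.42, -0.49 and -0.44, SE 0.0813, adjusted p = 0.00101, 0.0014 and 0.00716). The untreated call was lost without replicate 1 (0.05157) or 3 (0.05406) of the KO group. It was the 1 gene of its list called with IL-4 and the 1 called in untreated cells.

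Among 12 genes of lysosomal enzyme sorting, 3 were higher and 1 lower in KO with IFN-gamma (14.3% and 13.6% of all genes), 0 were called with IL-4 (3 at an unadjusted p under 0.05) and 1 was higher in untreated cells. The median of the list with IFN-gamma was 0.15, against 0.009 over all genes. The Vps35 call was lost without KO replicate 2 (0.09631) or 3 (0.1179) or WT replicate 1 (0.1241) or 2 (0.07769) of the IFN-gamma groups. The untreated call was that of M6pr, lost without any untreated library but KO replicate 2 (0.05503 to 0.1543). Igf2r, the cation-independent mannose 6-phosphate receptor, was higher in KO with IFN-gamma (0.99 ± 0.129, adjusted p = 3.01e-05), as was its adaptor Gga2 (0.77 ± 0.083, 3.72e-06), while M6pr, the cation-dependent receptor, was lower (-0.38 ± 0.0622, 0.000259). The IFN-gamma response of all 3 differed between genotypes (1.10 ± 0.182 for Igf2r, 0.78 ± 0.117 for Gga2 and -0.65 ± 0.088 for M6pr). Of the 4 MiT/TFE transcription factor genes, a family that includes activators of lysosomal genes, Tfec was higher in KO with IFN-gamma (0.75 ± 0.1, adjusted p = 3.48e-05) and with IL-4 (0.48 ± 0.1, 0.00753). Mitf was lower in KO with IFN-gamma (-0.25 ± 0.069, 0.0111), and Tfeb (0.08) and Tfe3 (0.03) were not called there. With IL-4 Tfec, Mitf and Tfeb rose in both genotypes (1.59, 0.88 and 0.69 in KO and 1.33, 0.85 and 0.38 in WT cells), and Tfe3 was not called. The Tfeb call in WT cells was lost without WT IL-4 replicate 3 (0.06381).

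Of the cathepsin A complex and prosaposin, Glb1, its beta-galactosidase (0.39 ± 0.0601, adjusted p = 0.000132), and Psap, the saposin precursor that cathepsins cut (0.51 ± 0.152, 0.0186), were higher in KO with IFN-gamma. The Psap call was lost without KO IFN-gamma replicate 1 (0.06964) and without replicate 2 (0.05308) or 3 (0.07188) of the WT IFN-gamma group. Neu1, its neuraminidase, was not called (0.23, 0.1, and 0.03979 without KO IFN-gamma replicate 2). All 8 class II loading genes rose with IFN-gamma in both genotypes, with a median change of 3.65 in KO and 3.87 in WT cells, where 28.3% and 31.4% of all genes rose. Cd74, the invariant chain that cathepsin S cuts, and H2-Aa were lower in KO than in WT cells there (-0.59 ± 0.188 and -0.68 ± 0.206, adjusted p = 0.0254 and 0.0207), and the other 6 were not called (median of the 8, -0.50). The Cd74 call was lost without KO replicate 2 (0.06258) or 3 (0.07925) or WT replicate 1 (0.09636) or 2 (0.05172) of the IFN-gamma groups, and that of H2-Aa without KO replicate 1 (0.05608) or 3 (0.05907) or WT replicate 1 (0.1047). Of the endosomal receptors cut by cathepsins, Tlr9 and Tlr3 rose with IFN-gamma (2.52 and 1.45 in KO, 2.22 and 1.29 in WT cells) and Tlr7 fell (-1.20 in KO and -1.49 in WT cells). Unc93b1, which carries them to endosomes, rose with IFN-gamma (0.28 in KO and 0.36 in WT cells, the KO call lost at 0.06308 without KO IFN-gamma replicate 1 and at 0.06375 without KO untreated replicate 1) and was lower in KO than in WT cells with IFN-gamma and with IL-4 (-0.42 ± 0.0878 in both, adjusted p = 0.0021 and 0.00786). Genes of serine proteases activated by cathepsin C were not analysed here.

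The genes whose pattern over the 18 libraries was most like that of a member were found by Pearson's r of log2 values, given as a description, since the libraries share 6 animals and 3 treatments. Closest to Ctsc were Lrch1 and Apobec3 (r = 0.996 each) and the chemokine gene Cxcl10 (0.995), and closest to Ctsh were Wdr20rt (0.996), Il15ra (0.996) and the glycolytic gene Tpi1 (0.995). For Ctsd they were Trem2 (0.970), S100a1 (0.966) and Nkain1 (0.966). Trem2, a lipid receptor of macrophages, averaged 974 in KO and 360 in WT cells with IFN-gamma and 3993 in KO and 4046 in WT untreated cells. The nearest genes were Slc35f6 (0.969), Psap (0.958) and Ccl22 (0.955) for Ctsz, Pld3 (0.978), Dpp7 (0.968) and Tmem97 (0.964) for Ctsa, and Cdk20 (0.978), Mettl7a1 (0.976) and Rai14 (0.976) for Ctsl. Ctse was nearest to Kctd9 (0.950), Ppp1r26 (0.937) and Gsr (0.932), the gene of glutathione reductase. Gsr averaged 4472 in KO and 3136 in WT cells with IFN-gamma, 1652 in KO and 761 in WT cells with IL-4, and 2304 in KO and 1317 in WT untreated cells. The genes near Ctsb included Lat2 (0.955) and Naglu (0.901), and those nearest to Ctss were Arl2 (0.939), Chid1 (0.937) and Map4k1 (0.933). Ctsf was nearest to Reps2 (0.978), Plxnc1 (0.977) and Gnpda1 (0.976).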

How the data were processed

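STAR 2.5 aligned the reads and HTSeq 0.6 counted them per gene on GRCm38, per the submitters' processing notes. The deposited table holds a signal, normalized counts that the authors scaled with a factor per library; 34 repeated identifiers were used once. Whole reads were recovered for 100.0% of values (tolerance 0.1).

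Values as log2(normalized count + 1) went into limma 3.58.1 (R 4.3.3) with 6 group means and two-sided tests. edgeR 4.0.16 (quasi-likelihood) and DESeq2 1.42.0 on the recovered reads were alternatives, and for KO against WT with IFN-gamma they called 4090 and 4313 genes, against 3980 by limma. The fit was tested on simulated data. Members and lists were chosen with earlier results of these data known. All members are reported. From each list, genes were eligible to be named if among the 4 called with the lowest adjusted p in a comparison, or if the list had 5 genes or fewer.

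The animal codes pair libraries across treatments. Deviations of an animal's libraries from their group means correlated across genes at r = 0.00363 to 0.243, with 13 of 18 pairs above 0.1 (genes are not independent replicates), and those of KO and WT libraries with the same number at -0.212 to 0.104. Replicates differed beyond sampling noise (chi-square per gene 4.331 to 60.46). Levels per kb use the transcript numbered first in GENCODE M21. Promoter windows come from RefSeq (GRCm38.p6), which matched 7 of 10 members. Of the genes most like Ctsb in pattern, 1 is not reported here.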

Additional observations from a re-analysis of the deposited data

Results flagged for a closer look

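The IFN-gamma responses of 2 members differed between KO and WT cells by the interaction test in limma. Ctsd had a difference of responses of 0.74 (KO minus WT), with changes of -0.51 ± 0.121 in KO and -1.25 ± 0.121 in WT cells. It was higher in 3 of 3 KO libraries than in every WT library with IFN-gamma, and the call held under all alternatives and without each library in turn (adjusted p = 0.009191 to 0.03745). Ctsc had a difference of -0.59, with changes of 3.68 ± 0.117 in KO and 4.26 ± 0.117 in WT cells, and was lower in 3 of 3 KO libraries with IFN-gamma. Its call was lost when any of these was left out: IFN-gamma replicate 1 (0.0839) or 3 (0.0508) of KO, IFN-gamma replicate 2 (0.07837) or 3 (0.07328) of WT, untreated replicate 2 (0.09926) or 3 (0.07214) of KO, or untreated replicate 1 (0.08504) or 2 (0.07607) of WT. Beside these values, summed stromal markers with IFN-gamma ran from 220 to 871.1 in KO and from 146.3 to 283 in WT cells, and their part was not tested. Groups of 3 libraries are too small for a test of single outlying values.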

How the results depend on the processing

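Counts of called members were recomputed with other pseudocounts, filters, scaling factors and tests, with the libraries of the compared groups alone, with a replicate block and without each library in turn. With IFN-gamma, KO against WT gave 5 members, and 3 to 6 without each library in turn (3 without WT IFN-gamma replicate 3). With IL-4, KO against WT gave 1 member, 3 by DESeq2 and 0 with the groups' own libraries. Untreated KO against WT gave 0 members, and 1 each by edgeR, by DESeq2 and with the groups' own libraries. The IFN-gamma response, KO minus WT, gave 2 members, 5 by DESeq2, 6 with the replicate block by animal, and 1 to 4 without each library in turn (4 without WT IFN-gamma replicate 1). The animal block also called Ctsc lower with IL-4 in KO cells (adjusted p = 0.04984) and changed no other call of a member. KO and WT libraries with the same replicate number come from different animals, and this number as a block changed no call of a member in KO against WT. The cause of these changes was not tested. No called change of a member reversed. Leaving out each library for the list genes was also chosen after seeing the data.

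Scaling to library totals, an alternative chosen after seeing the data, moved the median of all genes by -0.353 in KO and -0.301 in WT cells with IFN-gamma and by -0.141 in KO and -0.16 in WT cells with IL-4. Under it the rise of Ctsz with IFN-gamma in WT cells (adjusted p = 0.1451) and of Ctsa with IL-4 in KO cells (0.1096) lost their calls. Ctsa with IFN-gamma in KO cells (-0.50, 2.282e-05) and Ctsc (-0.37, 0.02837) and Ctsf (-0.61, 0.03123) with IL-4 in KO cells gained one. The uncalled IFN-gamma changes of Ctsb in KO cells and of Ctss in KO and WT cells were negative under it. Over all genes, untreated KO against WT called 283 genes, 608 by DESeq2, 1334 with the groups' own libraries, and 124 to 135 without replicate 1 or 3 of KO or 2 or 3 of WT. KO against WT with IL-4 called 941, 196 with the groups' own libraries, and 492 without KO IL-4 replicate 1. The IFN-gamma response, KO minus WT, called 1307, 2073 with the animal block, and 762 to 853 without untreated replicate 2 or 3 of either genotype. The IL-4 response, KO minus WT, called 1 gene, 2 with no filter on low values, 3 with a pseudocount of 5, 21 by DESeq2, 12 with the animal block and up to 3 without a library. Depth limits Ctse and Ctsf most, with 2 to 139 and 28 to 439 reads per library.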
